A study of Mus musculus with 16 samples.

Results

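The serpins are a family of proteins that share one fold, most of which trap and inactivate serine proteases. Every probe of the array was taken whose gene symbol was Serpin followed by a clade letter from a to i and a digit. This gave 81 probes for 56 genes, out of 45281 probes and 19057 genes on the array. RNA levels came from Illumina MouseWG-6 v2 arrays of mouse conceptuses (strain C57BL/6J, 9.5 days post coitum), with embryos and yolk sacs collected apart. The groups were mutant yolk sacs, wild-type yolk sacs, mutant embryos and wild-type embryos, with 2 RNA samples in each and 2 arrays per RNA sample. Mutants were homozygous for a deletion of exon 6 of rudhira, whose symbol on the array is Bcas3, and wild types were +/+ conceptuses from the same kind of heterozygous mating. No other allele or agent is named in the labels. By the labels the yolk sac and the embryo of one number within a genotype came from 1 conceptus, so the series rests on 4 conceptuses. The design text of the series names 6 of the 8 samples, leaving out 1 embryo of each genotype, and all 8 were used. The labels call the mutants growth retarded with an abnormal vasculature and the wild types normal.

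A serpin holds out a reactive centre loop as bait. When a protease cuts the loop the serpin folds over, and the protease stays bound to it in an inactive complex. Clade A and the clades C, D, F and G hold mostly secreted proteins of the blood, which keep elastase, thrombin, plasmin and complement proteases in check. Clade B serpins mostly stay inside cells. Some members inhibit nothing, such as the collagen chaperone encoded by Serpinh1. At this stage the visceral endoderm, the outer epithelium of the yolk sac, makes many of the plasma proteins that the liver makes later.

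A probe counted as detected on an array when its signal was above the level that background probes reach with a detection p of 0.05. The number of detected probes was 17382 to 19576 per array, and the upper quartile of the signal was 67 to 74.8 on mutant yolk sac arrays, 97.6 to 140.7 on wild-type yolk sac arrays, 108.7 to 124 on mutant embryo arrays and 109.5 to 125.5 on wild-type embryo arrays. The labelled tissues were checked by the mean log2 level of 11 visceral endoderm markers, among them Afp, Ttr and Apoa1, which was 12.54 and 12.52 in mutant yolk sacs, 12.76 and 12.80 in wild-type yolk sacs, with 8.14 and 8.71 in mutant embryos and 5.36 and 9.58 in wild-type embryos. All 11 were detected in each library except wild-type embryo 1, where 5 were, so the embryo libraries differed in how much of this marker RNA they held. Of 2 Bcas3 probes 1 was detected, and its signal was 233.6 and 278 in mutant yolk sacs, 759.4 and 1244.3 in wild-type yolk sacs, with 270.4 and 664.2 in mutant embryos and 331.2 and 390.8 in wild-type embryos. The library labelled mutant embryo 2 thus stood above both wild-type embryos, and where the probe lies relative to exon 6 is not known here. The Bcas3 signals are not normalized, and mutant yolk sac arrays were dimmer. After normalization the log2 difference, mutant minus wild type, was -1.27 in yolk sac (limma adjusted p = 0.0992) and 0.21 in embryos (limma adjusted p = 0.88). With 2 samples per group an exact permutation test cannot give a p below 0.333, so tests come from limma fitted over all genes, and they measure the spread between these samples only.

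Which serpins these tissues express at all was read first from detection. Of the 56 genes, 17 passed the filter of detection on at least 4 of the 16 arrays and were tested, among 11334 genes. Clade A gave 7 of 21 genes, Serpina1a, Serpina1b, Serpina1c, Serpina1d, Serpina1e, Serpina10 and Serpina3j. Clade B gave 4 of 26 genes, Serpinb1a, Serpinb6a, Serpinb6b and Serpinb9f. The single genes of the clades C, D, G and H passed (Serpinc1, Serpind1, Serping1 and Serpinh1), as did both genes of clade F (Serpinf1 and Serpinf2). The 1 gene of clade E on the array, Serpine3, and the 2 of clade I did not. Of the 39 genes that did not pass, 32 were detected on 0 of 16 arrays. They include Serpinb2, an inhibitor of urokinase, Serpinb5, known as maspin, Serpinb9, an inhibitor of granzyme B, Serpina6, which carries corticosteroids in the blood, and Serpina3n. For these genes the arrays show only that the signal was not above background.

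**Figure D1:**
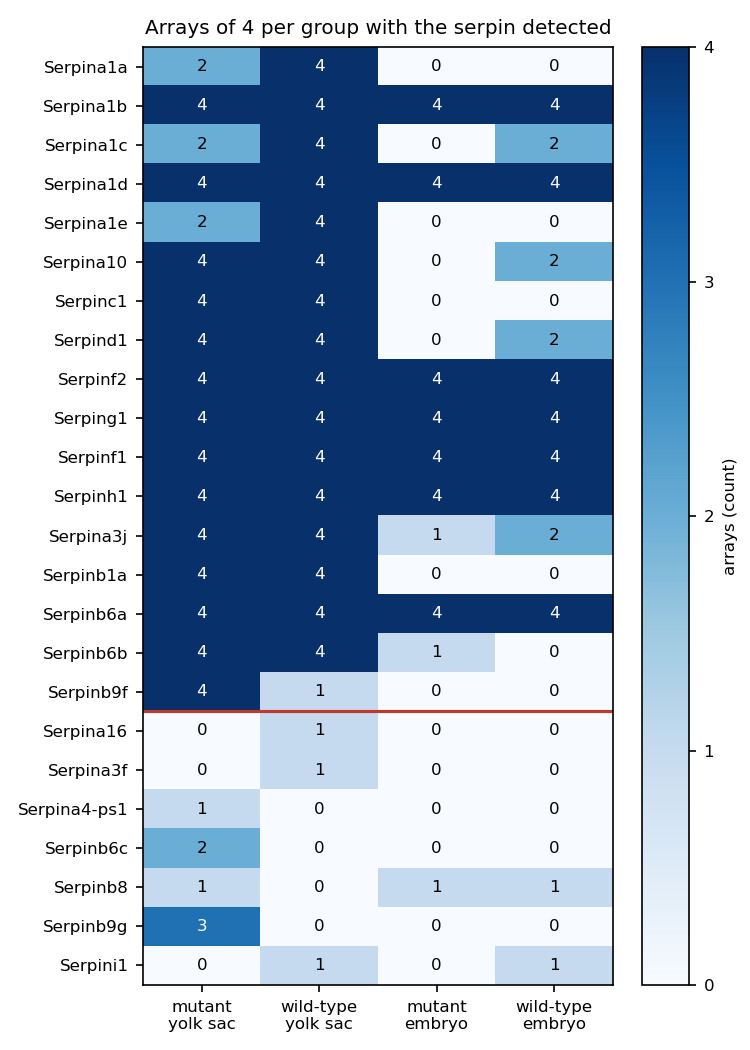
Number of arrays, of 4 per group, on which each serpin was detected, for the 24 genes detected on at least 1 array. Genes above the line are the 17 tested ones and those below it the 7 that missed the filter, and Serpinb9f, Serpinb6c and Serpinb9g have more detections in mutant than in wild-type yolk sacs, where the signal needed for detection was higher.

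Of the tested genes, 13 were detected on all 8 yolk sac arrays and 7 on all 16 arrays. In embryos, 5 tested genes (Serpina1a, Serpina1e, Serpinb1a, Serpinb9f and Serpinc1) were detected on 0 arrays. Another 5 (Serpina1c, Serpina10, Serpina3j, Serpinb6b and Serpind1) were detected on fewer than 4 embryo arrays. These 10 met the filter only with their yolk sac arrays, which favours genes that are higher there. The remaining 7 were detected on all arrays. The members lie in clusters: 20 of the 21 clade A genes are on chromosome 12, with all 7 tested ones, and the 26 clade B genes are on chromosomes 13 and 1, with 15 and 11 genes. All 4 tested clade B genes are on chromosome 13. Serpinf1 and Serpinf2 are both on chromosome 11.

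Serpina1a to Serpina1e are neighbouring copies of the gene for alpha-1 antitrypsin, known as the main plasma inhibitor of neutrophil elastase. Which proteases each copy inhibits was not looked at here. The promoters of the copies are shown because Serpina1a to Serpina1d were all low in the same yolk sac library below, where Serpina1e fell by less. The 120 bases before each annotated start, from RefSeq on GRCm38.p6, minus strand, are given 5′ to 3′, with capitals at GTTAAT, part of the site that the liver factor HNF1 binds. They lie at chr12:103863620-103863739 for Serpina1a, chr12:103738190-103738309 for Serpina1b, chr12:103904951-103905070 for Serpina1c, chr12:103773634-103773753 for Serpina1d and chr12:103956898-103957017 for Serpina1e.
Serpina1a: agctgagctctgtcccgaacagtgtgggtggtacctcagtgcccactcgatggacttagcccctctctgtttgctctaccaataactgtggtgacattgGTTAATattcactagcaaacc
Serpina1b: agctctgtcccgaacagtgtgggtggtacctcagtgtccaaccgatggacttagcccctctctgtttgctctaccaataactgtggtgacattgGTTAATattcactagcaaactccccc
Serpina1c: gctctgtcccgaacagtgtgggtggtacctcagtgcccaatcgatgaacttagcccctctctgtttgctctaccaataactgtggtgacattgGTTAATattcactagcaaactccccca
Serpina1d: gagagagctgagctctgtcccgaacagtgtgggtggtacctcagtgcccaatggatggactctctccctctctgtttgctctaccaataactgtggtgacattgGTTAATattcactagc
Serpina1e: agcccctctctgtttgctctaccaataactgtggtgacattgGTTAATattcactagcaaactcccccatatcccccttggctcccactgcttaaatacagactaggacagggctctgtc
The longest run common to the 5 windows of 250 bases had 55 bases, and 5 of 32851 promoter windows held it:
shared run: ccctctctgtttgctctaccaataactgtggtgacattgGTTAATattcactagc
Its GTTAAT began 21, 26, 27, 16 and 78 bases before the starts of Serpina1a, Serpina1b, Serpina1c, Serpina1d and Serpina1e.

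Over all promoters 6.43% held GTTAAT on either strand (ATTAAC on the other) within 250 bases of the start. Among the 14 tested serpins with an entry, 5 held it, and these 5 were the Serpina1 copies, which share the stretch above and so are not separate cases. A GATA site, searched as AGATAA or TTATCT, was held by 9.99% of all promoters and by 2 of the 14, Serpinf1 and Serpinf2. These letters describe the windows and were not tested for binding. Serpina10, Serpinb1a and Serping1 had no entry. Because the coding copies are so alike, probes of one Serpina1 gene may read another, and their sequences were not used here, so values are given per probe gene and not as independent genes.

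The comparison of tissues asked where in the conceptus each serpin is found. Serpinf2, Serpina10, Serpind1 and Serpinc1, secreted inhibitors of plasmin and of clotting proteases, were higher in yolk sac than in embryo in both genotypes. All 5 antitrypsin copies were higher in yolk sac in wild types, and 2 of them in mutants. Serpinf1, which encodes PEDF, was higher in embryo. In mutants 12 of the 17 tested serpins passed an adjusted p of 0.05 (limma, Benjamini-Hochberg over all genes), 11 higher in yolk sac and 1 lower. The share over all genes was 69.3% in either direction, 32.8% higher and 36.5% lower. In wild types 15 of 17 passed, 13 higher and 2 lower, where 69.5% of all genes passed, 33.2% higher and 36.2% lower. For 10 of the 17 a difference of this direction was built into the filter, so these counts describe the members and support nothing further. Of the 7 detected in embryos as well, 5 were higher and 1 lower in yolk sac in mutants, and 5 higher and 2 lower in wild types. Fewer cells of a type and less RNA per cell cannot be told apart in such bulk samples.

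**Figure D2:**
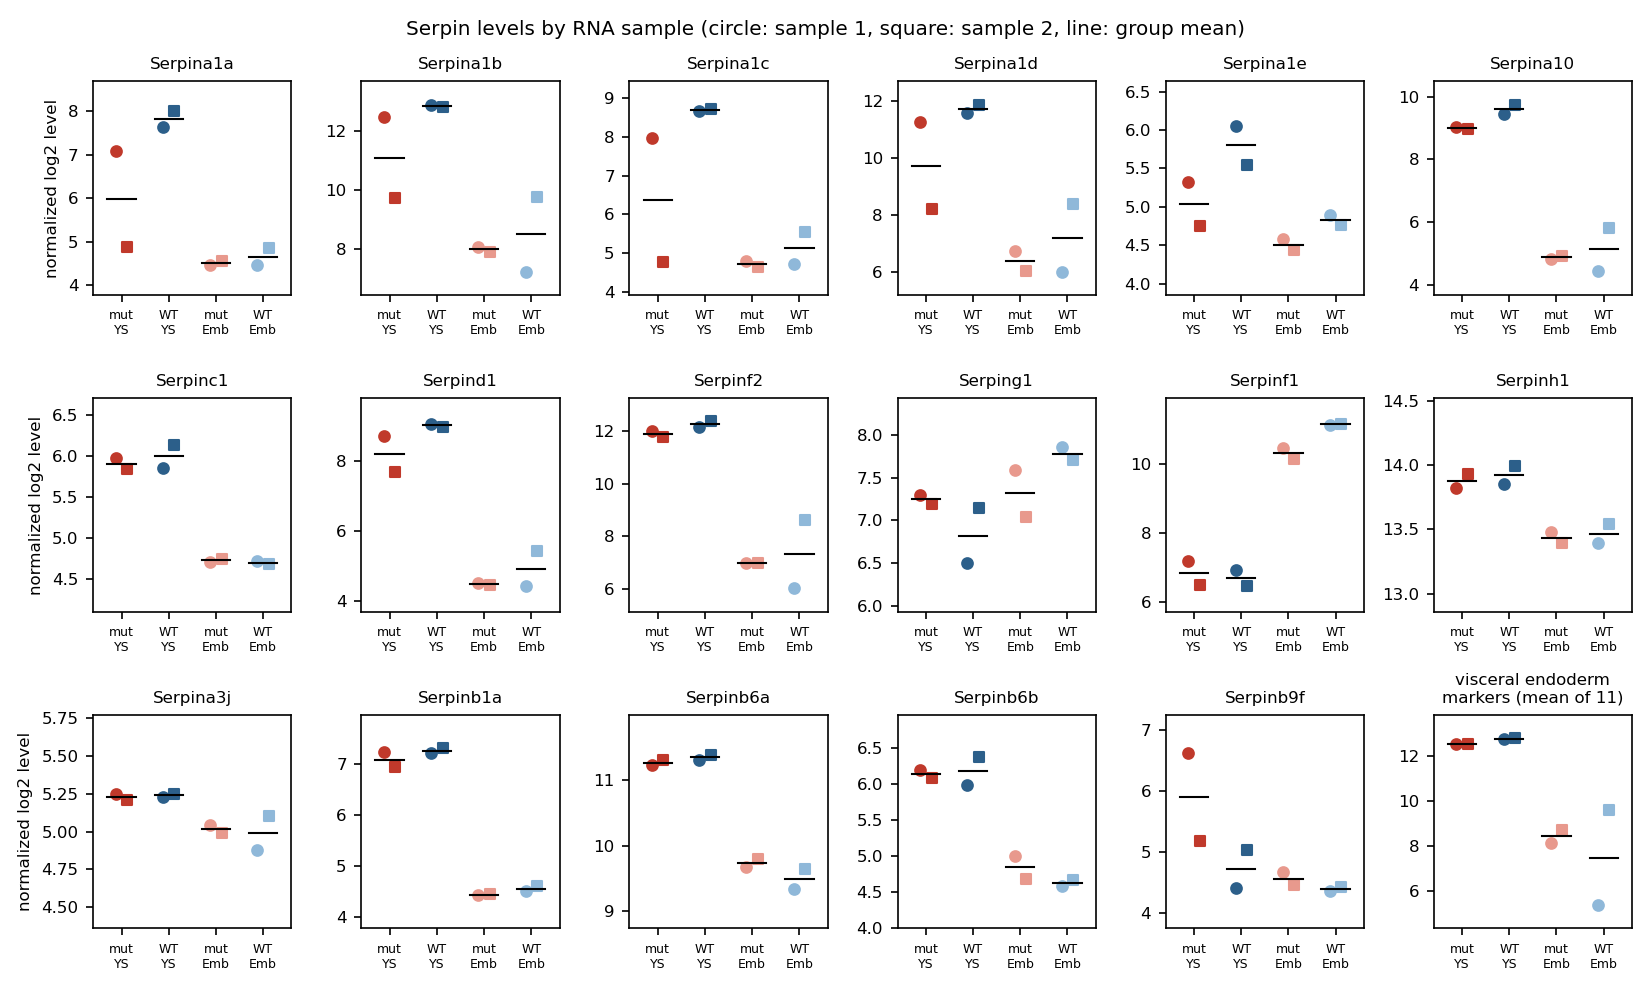
Normalized log2 level (vertical axis) of each tested serpin in each RNA sample, with a panel for the mean of 11 visceral endoderm markers. Columns are mutant yolk sac, wild-type yolk sac, mutant embryo and wild-type embryo, circles are sample 1, squares sample 2 and lines the group means. Axes differ between panels, and levels of different genes cannot be set against each other. Serpina1a to Serpina1d drop in mutant yolk sac 2, while the marker mean does not.

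Among the antitrypsin copies, log2 levels of Serpina1b were 12.46 and 9.71 in mutant yolk sacs, 12.89 and 12.82 in wild-type yolk sacs, with 8.06 and 7.90 in mutant embryos and 7.23 and 9.76 in wild-type embryos. Mutant yolk sac 2 lay below the other 3 yolk sacs and just below wild-type embryo 2. Log2 levels of Serpina1d were 11.28 and 8.19 in mutant yolk sacs, 11.57 and 11.88 in wild-type yolk sacs, with 6.74 and 6.02 in mutant embryos and 6.00 and 8.38 in wild-type embryos. The order of the samples resembled that of Serpina1b, with mutant yolk sac 2 low among yolk sacs and wild-type embryo 2 high among embryos. Serpina1b and Serpina1d were the Serpina1 genes detected on all arrays.

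The dimmer copies showed the same low sample. Log2 levels of Serpina1c were 7.97 and 4.77 in mutant yolk sacs, 8.67 and 8.72 in wild-type yolk sacs, with 4.80 and 4.63 in mutant embryos and 4.72 and 5.55 in wild-type embryos. Mutant yolk sac 2 was at embryo level. Log2 levels of Serpina1a were 7.09 and 4.88 in mutant yolk sacs, 7.63 and 8.00 in wild-type yolk sacs, with 4.46 and 4.55 in mutant embryos and 4.46 and 4.86 in wild-type embryos. Serpina1e was low throughout, at log2 levels of 5.33 and 4.75 in mutant yolk sacs, 6.05 and 5.55 in wild-type yolk sacs, with 4.58 and 4.44 in mutant embryos and 4.89 and 4.77 in wild-type embryos. In yolk sac both mutant samples lay under both wild-type samples for each of the 5 copies. Each of Serpina1a, Serpina1c and Serpina1e was detected on 2 of the 4 mutant yolk sac arrays and on all 4 wild-type yolk sac arrays.

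In wild types all 5 antitrypsin copies were higher in yolk sac, by log2 differences of 4.53 for Serpina1d (SE 1.04), 4.36 for Serpina1b (SE 0.98) and 3.56 for Serpina1c (SE 0.86), with limma adjusted p from 0.00513 to 0.00741. Their size depended on the embryo kept: without wild-type embryo 1 Serpina1d stood at 3.34 and Serpina1b at 3.09, and without wild-type embryo 2 at 5.72 and 5.63. Serpina1a and Serpina1e, detected on 0 wild-type embryo arrays, were at least 6.29-fold and at least 1.55-fold higher (limma adjusted p = 0.00218 and 0.00536). A bound of this kind sets the mean of the brighter group against the lowest level that was above background on the dimmer arrays. It takes no account of the spread between samples, so the confidence interval of a difference can start below it. For Serpina1a in wild types the fitted log2 difference was 3.16, with a confidence interval from 1.75 to 4.56, which starts below the bound. In mutants Serpina1d (log2 3.36, SE 1.04, limma adjusted p = 0.0218) and Serpina1b (log2 3.11, SE 0.98, limma adjusted p = 0.0233) passed. Serpina1a (1.48), Serpina1c (1.65) and Serpina1e (0.53), detected on 0 mutant embryo arrays, had limma adjusted p of 0.0586, 0.125 and 0.0633. With the conceptus as a block Serpina1a and Serpina1e passed, at 0.0384 and 0.0251. Wherever a sample is left out, its group keeps 1 sample, which the fit assumes to vary like the other groups. Without mutant yolk sac 2 all 3 passed, against embryos in which none was above background. Without mutant yolk sac 1, or without either mutant embryo, Serpina1b (limma adjusted p = 0.0777 to 0.138) and Serpina1d (0.0562 to 0.12) did not pass.

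The tested serpins that restrain clotting, Serpina10, Serpind1 and Serpinc1, were higher in yolk sac as well. They met the filter only with their yolk sac arrays, so this direction was built in. Serpina10 encodes the protein Z-dependent inhibitor of factor Xa, and its log2 levels were 9.03 and 8.96 in mutant yolk sacs, 9.46 and 9.72 in wild-type yolk sacs, with 4.83 and 4.92 in mutant embryos and 4.44 and 5.81 in wild-type embryos. Tissues did not overlap, and wild-type embryo 2 was the highest embryo. Serpind1 encodes heparin cofactor II, a thrombin inhibitor, and its log2 levels were 8.72 and 7.70 in mutant yolk sacs, 9.07 and 8.98 in wild-type yolk sacs, with 4.52 and 4.46 in mutant embryos and 4.43 and 5.42 in wild-type embryos. Both genes were detected on 0 mutant embryo arrays and 2 wild-type embryo arrays. In mutants Serpina10 was at least 15.2-fold and Serpind1 at least 8.78-fold higher in yolk sac (limma adjusted p = 4.96e-05 and 8.73e-05). In wild types the log2 differences were 4.47 (SE 0.37) and 4.10 (SE 0.38). That of Serpina10 was 3.78 without wild-type embryo 1 and 5.15 without wild-type embryo 2.

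Serpinc1, which encodes antithrombin, the main heparin-dependent inhibitor of thrombin, was closer to background. Its log2 levels were 5.97 and 5.84 in mutant yolk sacs, 5.86 and 6.13 in wild-type yolk sacs, with 4.71 and 4.75 in mutant embryos and 4.72 and 4.68 in wild-type embryos. No embryo array detected it, and it was at least 1.78-fold higher in yolk sac in mutants and at least 1.78-fold higher in wild types (limma adjusted p = 6.78e-05 and 3.72e-05). A second Serpinc1 probe was detected on 1 of 16 arrays and was not kept.

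Serpinf2, which encodes alpha-2 antiplasmin, the plasma inhibitor of plasmin, was detected on all arrays of both tissues and higher in yolk sac. Its log2 levels were 11.99 and 11.78 in mutant yolk sacs, 12.15 and 12.37 in wild-type yolk sacs, with 6.96 and 6.99 in mutant embryos and 6.01 and 8.63 in wild-type embryos. The wild-type embryos were further apart than the mutant embryos, which lay between them. The log2 difference was 4.91 in mutants (SE 0.69, limma adjusted p = 0.00048) and 4.94 in wild types (SE 0.69, limma adjusted p = 0.000444). In wild types it was 3.64 without wild-type embryo 1 and 6.25 without wild-type embryo 2, so its size is not fixed by these samples. The other 2 probes of Serpinf2 gave 4.35 and 4.76 in mutants and 4.61 and 4.88 in wild types.

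Serpinf1 went the other way. It encodes PEDF, a secreted serpin that inhibits no protease and is known as an inhibitor of blood vessel growth and a trophic factor for neurons. Its log2 levels were 7.20 and 6.50 in mutant yolk sacs, 6.92 and 6.46 in wild-type yolk sacs, with 10.47 and 10.13 in mutant embryos and 11.12 and 11.16 in wild-type embryos. All 4 embryos lay above all 4 yolk sacs, and both wild-type embryos above both mutant embryos. The log2 difference between yolk sac and embryo was -3.45 in mutants (SE 0.25, limma adjusted p = 1.73e-05) and -4.45 in wild types (SE 0.25, limma adjusted p = 4.65e-06). Another Serpinf1 probe, detected on 11 of 16 arrays at signals of 12.8 to 34.6, gave differences of the opposite sign, 0.13 and 0.36.

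Serping1, which encodes the C1 inhibitor of complement and contact proteases, had log2 levels of 7.30 and 7.19 in mutant yolk sacs, 6.50 and 7.14 in wild-type yolk sacs, with 7.59 and 7.04 in mutant embryos and 7.86 and 7.70 in wild-type embryos. Mutant tissues overlapped and wild-type tissues did not. In mutants the log2 difference was -0.07 (SE 0.24, limma adjusted p = 0.81), and in wild types Serping1 was lower in yolk sac by a log2 difference of -0.96 (SE 0.24, limma adjusted p = 0.00835). The difference between these values is the interaction reported below.

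Serpinh1 encodes HSP47, the chaperone of procollagen in the endoplasmic reticulum. Its log2 levels were 13.82 and 13.93 in mutant yolk sacs, 13.85 and 13.99 in wild-type yolk sacs, with 13.48 and 13.39 in mutant embryos and 13.39 and 13.54 in wild-type embryos. Yolk sac was higher by 0.44 in mutants and 0.46 in wild types on the log2 scale (SE 0.11 each, limma adjusted p = 0.00667 and 0.0057). The second Serpinh1 probe disagreed in mutants at -0.36, while it gave 0.49 in wild types, and with the mean over both probes the mutant difference was 0.04 (limma adjusted p = 0.749). With median scaling the mutant difference of the tested probe was 0.41 (limma adjusted p = 0.0541).

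Of the 4 tested clade B serpins, which act inside cells, Serpinb6a, Serpinb6b and Serpinb1a were higher in yolk sac in both genotypes. Serpinb6a, an inhibitor of cathepsin G, had log2 levels of 11.23 and 11.30 in mutant yolk sacs, 11.31 and 11.39 in wild-type yolk sacs, with 9.67 and 9.80 in mutant embryos and 9.34 and 9.64 in wild-type embryos. Yolk sacs and embryos did not overlap. The log2 difference was 1.53 in mutants and 1.86 in wild types (SE 0.12 each, limma adjusted p = 2.61e-05 and 9.19e-06). Serpinb1a, an inhibitor of neutrophil elastase in leukocytes, had log2 levels of 7.23 and 6.93 in mutant yolk sacs, 7.21 and 7.31 in wild-type yolk sacs, with 4.42 and 4.45 in mutant embryos and 4.50 and 4.60 in wild-type embryos. No embryo array detected Serpinb1a, and yolk sac was at least 4.02-fold higher in mutants and at least 4.27-fold in wild types (limma adjusted p = 2.35e-06 and 1.68e-06).

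Serpinb6b, a copy related to Serpinb6a, had log2 levels of 6.20 and 6.09 in mutant yolk sacs, 5.99 and 6.37 in wild-type yolk sacs, with 5.00 and 4.68 in mutant embryos and 4.58 and 4.67 in wild-type embryos. Its log2 difference was 1.31 in mutants (SE 0.16, limma adjusted p = 0.000221), with 1 mutant embryo array above background. In wild types it was at least 2.03-fold higher (limma adjusted p = 7.96e-05). The level of Serpina3j, a gene of the antichymotrypsin group that mice have in many copies, ran from 4.88 to 5.25 on the log2 scale over the 8 samples and passed in neither genotype (limma adjusted p = 0.0929 in mutants and 0.0614 in wild types).

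Serpinb9f, one of the copies related to the granzyme B inhibitor Serpinb9, was close to background in most samples. Its log2 levels were 6.63 and 5.19 in mutant yolk sacs, 4.42 and 5.03 in wild-type yolk sacs, with 4.68 and 4.46 in mutant embryos and 4.37 and 4.43 in wild-type embryos. It was detected on 4 mutant and 1 wild-type yolk sac arrays and on 0 embryo arrays. Its signal was 54.2 and 13.8 in mutant yolk sacs, against -4.2 and 18.1 in wild-type yolk sacs. A signal of 10 to 12 sufficed for detection on mutant yolk sac arrays and one of 16.7 to 21 on wild-type yolk sac arrays, so the counts of arrays do not set the genotypes on equal terms. In mutants the yolk sac mean stood 1.78-fold above the lowest embryo level that was above background, which leaves out the spread between samples. The fitted log2 difference was 1.34, with a confidence interval from 0.36 to 2.32 (limma adjusted p = 0.0222). Without mutant yolk sac 1 the log2 difference was 0.62, so a difference smaller than 1.78-fold is not excluded. In wild types the log2 difference was 0.32 (limma adjusted p = 0.511). Leaving out mutant yolk sac 1 ended the call in mutants (limma adjusted p = 0.0665), as did leaving out either mutant embryo (0.0623 and 0.0993). The mean log2 level of 5 tested trophoblast markers was 8.79 and 8.46 in mutant yolk sacs and 7.16 and 7.99 in wild-type yolk sacs. It was 6.61 and 6.81 in mutant embryos and 5.62 and 6.49 in wild-type embryos. All 5 were detected in every yolk sac, and the listed markers Tpbpa and Elf5 were above background on 0 arrays. For genotype in yolk sac 1 of the 5, Plac1, passed (log2 1.03, limma adjusted p = 0.0437). In each genotype 3 of the 5 passed as higher in yolk sac than in embryo and 1, Tfap2c, as lower. In yolk sacs Prl2c2 ran from 6.78 to 10.71 and Rhox6 from 8.33 to 8.62 on the log2 scale. The part of trophoblast RNA in the Serpinb9f level was not tested.

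**Figure D3:**
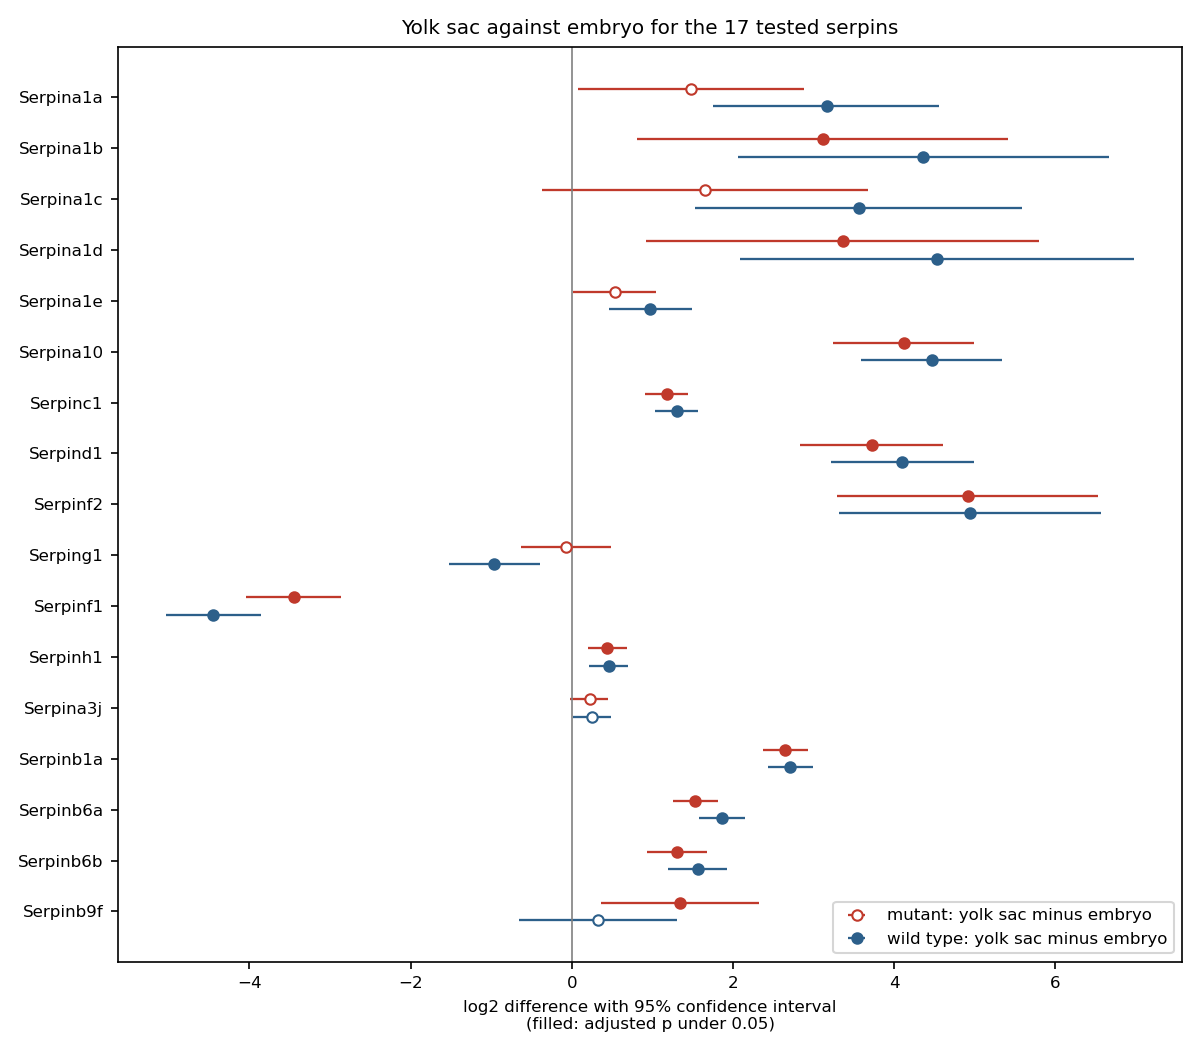
Log2 difference, yolk sac minus embryo, with its 95% confidence interval from limma (horizontal axis) for each tested serpin, mutant in red above wild type in blue. Filled points passed an adjusted p of 0.05. Serpinf1 lies far to the left in both genotypes, and Serpinf2, Serpina10 and Serpind1 lie to the right in both.

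The comparison of genotypes in yolk sac asked whether loss of rudhira changed serpin levels in the tissue where the first vessels form. None of the 17 tested serpins passed: 0 had a limma adjusted p under 0.05, where 1.26% of all 11334 genes did, 0.565% higher and 0.697% lower. At an unadjusted p under 0.05 the count was 4 of 17, against 20.9% of all genes. Both mutant samples lay below both wild-type samples for 9 of 17 and above them for 2, where the shares over all genes were 24.1% lower and 23.8% higher. The 9 lower ones were the 5 antitrypsin copies, Serpina10, Serpind1, Serpinf2 and Serpinb6a, which are not independent of each other. The median log2 difference was -0.18 over the tested serpins and 0 over all genes.

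The 4 serpins with the smallest p were Serpina1e, Serpina1a, Serpinb9f and Serpina1c, whose values in each sample are given above. Serpina1e had a log2 difference, mutant minus wild type, of -0.76 (SE 0.22, limma adjusted p = 0.12). For Serpina1a it was -1.83 (SE 0.60, limma adjusted p = 0.147) and for Serpina1c -2.32 (SE 0.86, limma adjusted p = 0.188). Serpinb9f stood at 1.19 (SE 0.42, limma adjusted p = 0.172). Median scaling in place of quantile scaling moved the median of all genes by -0.23, and 25 of its 602 calls over all genes were higher, against 64 of 143. With it Serpina1e (-0.82) and Serpina1a (-2.11) passed at limma adjusted p of 0.0466 and 0.048.

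The other members had intervals that include 0. Serpina1d stood at -1.99 with a 95% interval from -4.43 to 0.45, Serpina1b at -1.77 (-4.07 to 0.53), Serpind1 at -0.81 (-1.70 to 0.07) and Serpina10 at -0.59 (-1.47 to 0.28) on the log2 scale. Serpinf2 stood at -0.38, with an interval from -2.00 to 1.24 on either side of 0. The intervals were narrow for Serpinh1 (-0.29 to 0.20), Serpinc1 (-0.35 to 0.18), Serpina3j (-0.24 to 0.23), Serpinb6a (-0.37 to 0.20) and Serpinb1a (-0.45 to 0.10). A second Serpinh1 probe gave -0.81 where the tested one gave -0.05, so the narrow interval holds for that probe only. Serpinc1 and Serpina3j were near background, where levels lie close together, so their narrow intervals say little about the size of a change.

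The size of the antitrypsin differences rested on 1 library. Set against mutant yolk sac 1, mutant yolk sac 2 was lower by 3.19 for Serpina1c, 3.10 for Serpina1d, 2.76 for Serpina1b and 2.20 for Serpina1a on the log2 scale. Serpina1c and Serpina1a were not above background in mutant yolk sac 2, so their differences are fitted values that depend on the background. Of the 6 genes that were lower by 2 or more, 4 were these copies, and the others were Prl4a1, of the prolactin family, and Gzmd, a granzyme. Serpina1e differed by -0.58 and Serpind1 by -1.02, while Serpina10, in the same gene cluster, differed by -0.07 and Serpinf2 by -0.22. Over the tested serpins, sample 2 minus sample 1 had an SD of 1.16 in mutant yolk sacs and 0.311 in wild-type yolk sacs. Over all genes these SDs were 0.29 and 0.275.

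**Figure D4:**
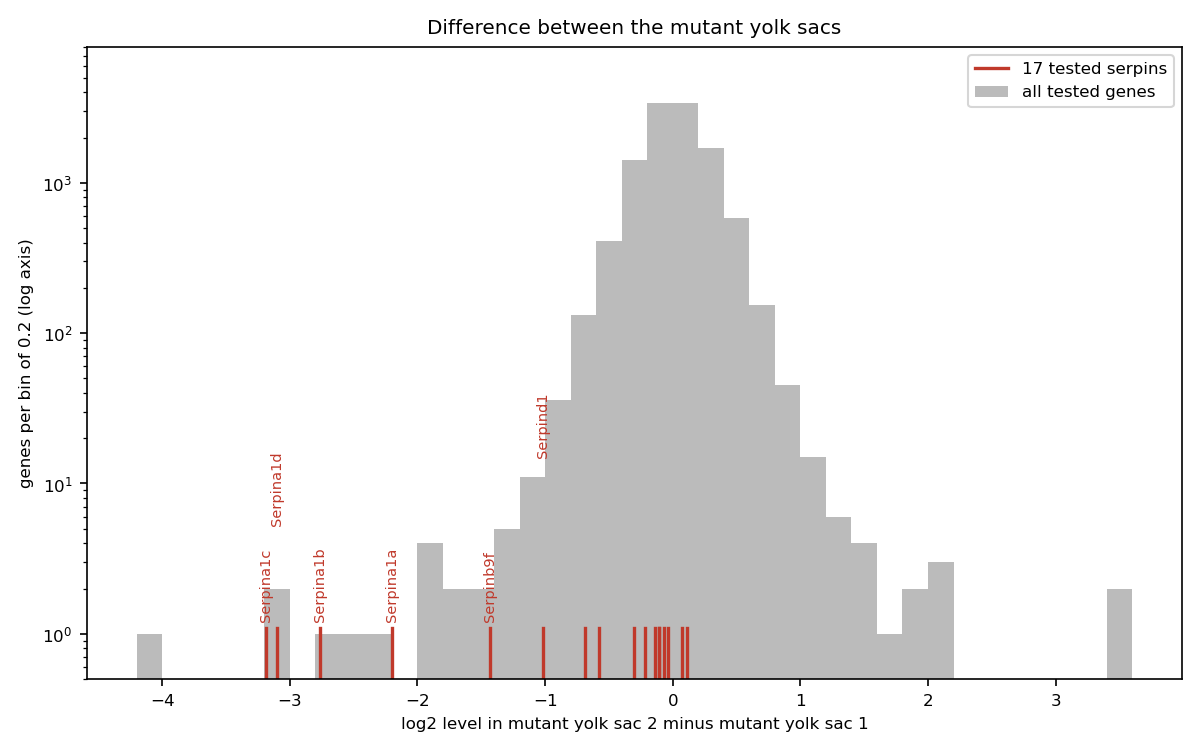
Histogram of the log2 level in mutant yolk sac 2 minus that in mutant yolk sac 1 over all 11334 tested genes (grey, count on a log axis), with the 17 tested serpins as red ticks. Serpina1a, Serpina1b, Serpina1c and Serpina1d sit in the sparse left tail, at -2.20 to -3.19, and most other serpins near 0.

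Without mutant yolk sac 1 the yolk sac differences, mutant minus wild type, were -3.92 for Serpina1c and -2.94 for Serpina1a, and both passed (limma adjusted p = 0.0262 each). The mutant group is then 1 sample in which neither gene was above background, with the spread taken from the other groups. Serpina1d stood at -3.54 and Serpina1b at -3.15 there (limma adjusted p = 0.107 and 0.132). Without mutant yolk sac 2 the 4 copies stood at -0.39 to -0.73, with limma adjusted p from 0.173 to 0.852. The visceral endoderm markers, at 12.54 in mutant yolk sac 1 and 12.52 in mutant yolk sac 2, did not fall with the copies.

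Where else that library was low was looked up after its values had been seen. Of 30 genes lower by 1 or more in mutant yolk sac 2, 7 (23.3%) lie on chromosome 12, which carries 3.43% of the tested genes. These were Serpina1a, Serpina1b, Serpina1c and Serpina1d with Eml1, Ppp1r13b and Kif26a. The Serpina1 copies prompted the look and their probes may read one another, so the share supports nothing further. Eml1 (-1.90), Ppp1r13b (-1.61) and Kif26a (-1.19) were lower in the library labelled mutant embryo 2 as well, by differences to mutant embryo 1 of -1.64, -1.77 and -0.95. By the labels both libraries come from 1 conceptus. In that embryo Serpina1d differed by -0.72 and Serpina1b by -0.16. All samples carry the same strain label, and the cause was not tested.

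In embryos 0 of the 17 tested serpins passed for genotype, where 2.13% of all genes did, 0.609% higher and 1.52% lower. Over all genes 69 of 241 calls were higher, and without wild-type embryo 2 it was 85 of 133. The unadjusted p was under 0.05 for 1 of 17 and for 12.5% of all genes. Both mutant samples lay above both wild-type samples for 3 of 17 and below them for 4, against 25.2% and 26.7% of all genes. The median log2 difference was -0.25 over the tested serpins and 0 over all genes. Serpinf1 had the smallest p, with a log2 difference, mutant minus wild type, of -0.84 (SE 0.25, limma adjusted p = 0.199), and its second, dimmer probe gave 0. The difference was -0.71 with median scaling, and -0.67 when mutant embryo 2 was left out. The 5 tested neural markers, at mean log2 levels of 6.77 and 6.52 in mutant embryos and 7.87 and 7.96 in wild-type embryos, had 3 members that passed as lower in mutants, and their part in the Serpinf1 level was not tested.

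The next members by p in embryos were Serpinb6a at 0.25 (SE 0.12, limma adjusted p = 0.477), Serping1 at -0.47 (SE 0.24, limma adjusted p = 0.499) and Serpina1e at -0.32 (SE 0.22, limma adjusted p = 0.647). Serpina1e was detected on 0 embryo arrays, so that value compares background. For 7 of the 17 (Serpina10, Serpina1a, Serpina1b, Serpina1d, Serpina3j, Serpind1 and Serpinf2) both mutant embryos lay above wild-type embryo 1 and below wild-type embryo 2. These embryos were also the lowest and the highest in visceral endoderm markers, at 5.36 and 9.58, and the part of such RNA was not tested. Serpinf2 turned with it: the genotype difference was -1.65 without wild-type embryo 1 (limma adjusted p = 0.0109) and 0.97 without wild-type embryo 2 (limma adjusted p = 0.0455), against -0.34 with all embryos. Each of these fits holds 1 wild-type embryo and takes the spread from the other groups, so the p-values say only which embryo was kept.

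**Figure D5:**
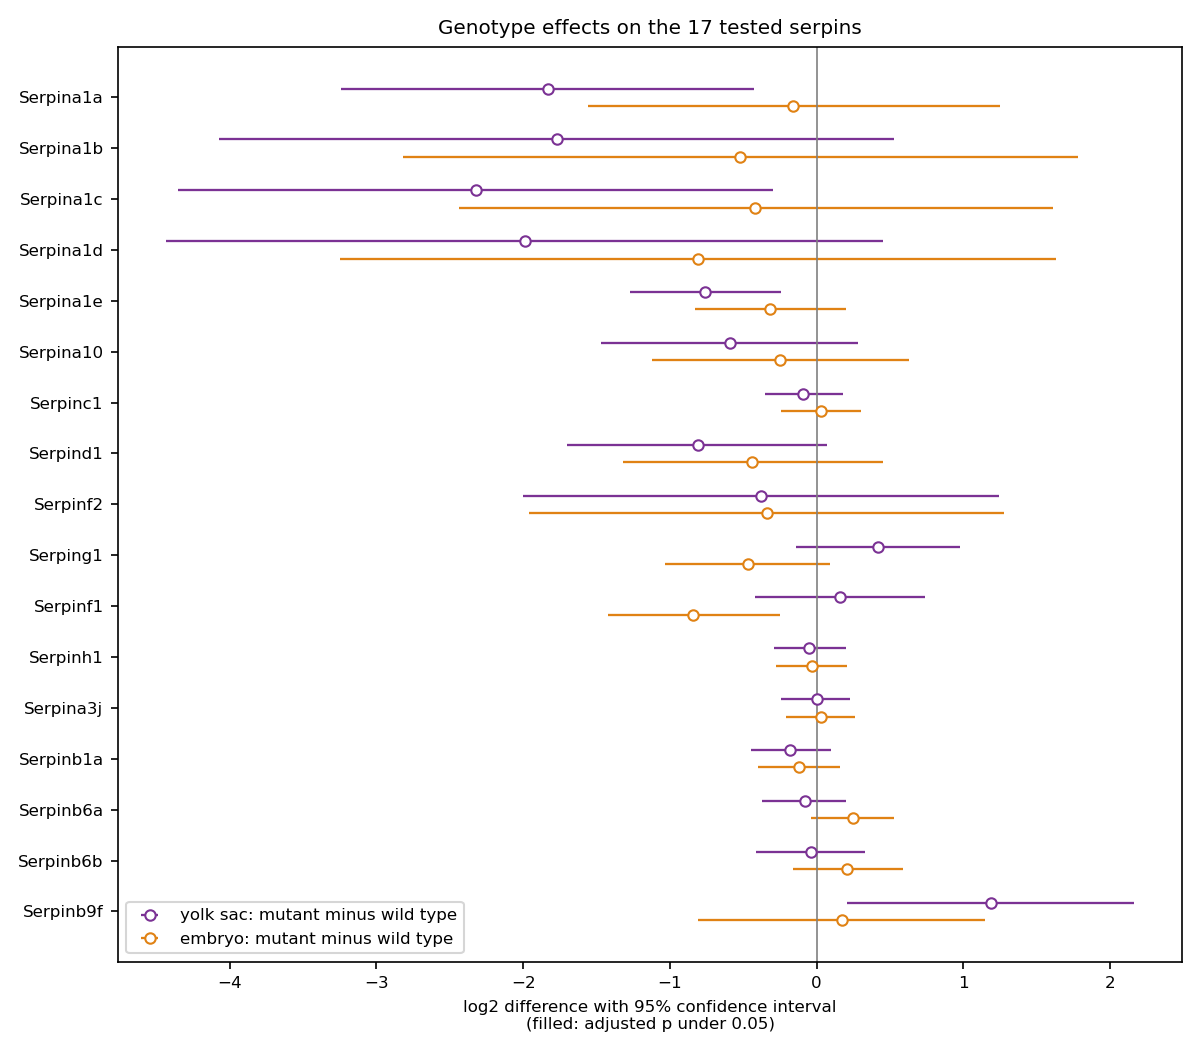
Log2 difference, mutant minus wild type, with its 95% confidence interval from limma (horizontal axis) for each tested serpin, yolk sac in purple above embryo in orange. Every point is open, since 0 of 17 passed an adjusted p of 0.05 in either tissue. The intervals of Serpina1b, Serpina1c and Serpina1d are the widest in yolk sac, and those of Serpinh1, Serpinc1 and Serpina3j are narrow in both tissues. Serpinc1 was detected on 0 embryo arrays and Serpina3j was dim throughout. Levels near background lie close together, so the narrow intervals of these genes say little about the size of a change.

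The difference of the genotype effects, yolk sac minus embryo, passed for 0 of 17 serpins and for 0.335% of all genes, 0.265% higher and 0.0706% lower. With median scaling 25 of 57 calls over all genes were higher, against 30 of 38. At an unadjusted p under 0.05 the count was 2 of 17, against 18.7% of all genes. Serpinf1 stood at a log2 interaction of 1.00 (SE 0.35, limma adjusted p = 0.197) and Serping1 at 0.89 (SE 0.34, limma adjusted p = 0.222). Both had a positive difference in yolk sac, 0.16 and 0.42, beside a negative one in embryos. The second, dimmer Serpinf1 probe disagreed, with an interaction of -0.24 and a yolk sac difference of -0.24. The second Serping1 probe gave an interaction of 0.83. Next came Serpina1a at -1.68 (SE 0.85, limma adjusted p = 0.338) and Serpinb6a at -0.33 (SE 0.17, limma adjusted p = 0.345). Without mutant yolk sac 1 the interactions of Serpina1c (-3.50) and Serpina1a (-2.78) passed at a limma adjusted p of 0.0492 each, and without wild-type embryo 2 that of Serpinf2 did (-1.35, limma adjusted p = 0.0499).

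The proteases that serpins inhibit were compared between the tissues next. Of 33 listed target proteases 21 were tested. In mutants 18 were higher and 1 lower in yolk sac, where 32.8% and 36.5% of all genes were. In wild types 17 were higher and 1 lower, where 33.2% and 36.2% were. A listed gene can meet the filter with its yolk sac arrays alone, and its direction is then built in. The counts between tissues for this and the following lists describe their members and support nothing further. In mutants the 3 largest fitted differences were those of Plg, which encodes the plasmin precursor and was at least 15.0-fold higher, of F10, the clotting factor that Serpina10 inhibits, at a log2 difference of 4.15, and of Tmprss2, a membrane protease, at 3.85. In wild types Tmprss2 stood at 5.27, Plg at 4.64 and F10 at 4.20. Without wild-type embryo 1 Tmprss2 stood at 3.68 and F10 at 3.58, and without wild-type embryo 2 at 6.87 and 4.82. Plat, the tissue plasminogen activator, was lower in yolk sac by log2 differences of -1.30 in mutants and -1.98 in wild types. For genotype 0 of the 21 passed in yolk sac and 0 in embryos (1.26% and 2.13% of all genes), with median differences of 0 and 0.02.

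Of 35 listed inhibitors of other families 20 were tested, with 11 higher and 3 lower in yolk sac in mutants, and 13 higher and 3 lower in wild types, beside the same shares of all genes. In mutants Kng1, the kininogen gene, was at least 21.5-fold higher and Itih3, an inter-alpha-trypsin inhibitor chain, at least 6.16-fold, and Ambp stood at a log2 difference of 3.72. In wild types Spink1, a trypsin inhibitor, and Kng1 stood at 4.95 each, and Itih3 was at least 6.48-fold higher. Without wild-type embryo 1, the library with few visceral endoderm markers, Spink1 stood at 2.81 and Kng1 at 3.67, and without wild-type embryo 2 at 7.09 and 6.23. The members that were lower in yolk sac were Wfdc2, Pebp1 and Timp2, at -2.07, -1.03 and -0.88 in mutants and -1.82, -0.92 and -1.18 in wild types.

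For genotype 3 of these 20 inhibitors passed in yolk sac, all lower in mutants, where 0.697% of all genes were lower, and 0 did in embryos, where 2.13% of all genes passed. Tfpi, the inhibitor of the tissue factor pathway, had log2 levels of 8.54 and 8.44 in mutant yolk sacs, against 9.42 and 9.39 in wild-type yolk sacs, a difference of -0.91 (SE 0.15, limma adjusted p = 0.0437). Spink8 stood at 5.56 and 5.15 in mutant yolk sacs, against 6.89 and 7.41 in wild-type yolk sacs, a log2 difference of -1.80 (SE 0.20, limma adjusted p = 0.034). Itih2 stood at 5.60 and 5.47 in mutant yolk sacs, against 6.42 and 7.05 in wild-type yolk sacs (log2 difference -1.20, SE 0.20, limma adjusted p = 0.0443). Mutant and wild-type yolk sacs did not overlap for any of the 3. In a fit to yolk sacs alone none of them passed (limma adjusted p = 0.15 for Tfpi and Spink8 and 0.182 for Itih2). The calls thus rest on the spread shared with embryos. With single yolk sacs left out, the limma adjusted p was 0.0731 to 0.168 for Tfpi, 0.058 to 0.16 for Itih2 and 0.0338 to 0.156 for Spink8, which passed only without mutant yolk sac 1.

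Of 23 listed receptors and cofactors that bind serpins or their complexes 19 were tested, with 8 higher and 8 lower in yolk sac in mutants, and 7 higher and 8 lower in wild types. These counts lie near the shares over all genes, 32.8% higher and 36.5% lower in mutants and 33.2% and 36.2% in wild types. Lrp2, the endocytic receptor megalin, and its chaperone Lrpap1 were higher, at log2 differences of 2.35 and 2.51 in mutants and 3.20 and 2.47 in wild types. Plaur, the urokinase receptor, was at least 2.90-fold higher in mutants, and Sdc4 stood at 2.13 in wild types. Gpc1, a heparan sulfate proteoglycan, was lower, at -4.03 in mutants and -4.41 in wild types, as was the lipoprotein receptor Lrp8, at -2.30 and -1.95. In mutants Vldlr came next, at -2.25 (-1.52 to -2.98 with single samples left out). In wild types Vtn, at -2.77, lay between Gpc1 and Lrp8.

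Vtn, which encodes vitronectin, a plasma and matrix protein that binds serpin complexes, was the 1 member of that list to pass for genotype in embryos, where 2.13% of all genes did. Its log2 levels were 7.48 and 6.94 in mutant embryos, against 8.32 and 8.60 in wild-type embryos (log2 difference -1.25, SE 0.18, limma adjusted p = 0.0208). The groups did not overlap. With single embryos left out the difference was -0.97 to -1.52 and the limma adjusted p 0.00912 to 0.082, passing only without mutant embryo 1. In yolk sac 0 of the 19 passed, where 1.26% of all genes did.

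Of 18 listed procollagens and enzymes that work beside Serpinh1, 17 were on the array and tested. In mutants 11 were higher and 1 lower in yolk sac and 5 did not pass, where 32.8% of all genes were higher and 36.5% lower. In wild types 14 were higher and 1 lower, where 33.2% and 36.2% were. Col1a1 stood at log2 differences of 1.94 in mutants (1.26 to 2.61 with single samples left out) and 3.72 in wild types (2.78 to 4.65), Col1a2 at 1.56 and 2.20, and Crtap, part of the prolyl 3-hydroxylase complex, at 1.72 and 1.45. Col2a1, the collagen of cartilage and notochord, was lower in yolk sac, at -5.42 and -4.79. For genotype 1 of the 17 passed in yolk sac and 1 in embryos, where 1.26% and 2.13% of all genes did. Col2a1 was lower in mutant yolk sacs, with log2 levels of 5.13 and 5.26 there, against 5.99 and 6.43 in wild-type yolk sacs (limma adjusted p = 0.0399). P4ha2, a collagen prolyl hydroxylase, was higher in mutant embryos, with log2 levels of 8.91 and 9.19, against 8.29 and 8.45 in wild-type embryos (limma adjusted p = 0.0461). Neither gene's groups overlapped, and neither call held with any single sample of its tissue left out (limma adjusted p = 0.058 to 0.159 and 0.0526 to 0.327).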

How the data were processed

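The deposited table holds probe intensity on a linear scale, with values below 0 that point to background subtraction, and a score from 0 to 1 per probe and array, headed as a p-value. The deposited scores did not follow the signals beside them (Spearman 0.00157 to 0.0106 per array), so they were taken as detection scores, 1 minus the detection p, and matched to signals by rank within each array. Detection and background rest on that assumption, as does the signal for detection, 10 to 28.8. The authors' processed values, which by comparison with the signals are log2 with 1 shift per array and have a median of 0 for every probe in each tissue, served as an alternative for genotype. Their array medians ran from -0.28 to 0.15, and how the shifts were set is unknown. Background method and software: not given in the sources used here. No sample stayed without its column, and 0 columns of values were left unmatched. A further 20 columns were empty.

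Per the platform annotation, 34885 probes had 1 gene symbol, 18 several and 10378 none. Signals were normalized with neqc (offset 16) in limma 3.58.1 under R 4.3.3. Probes detected on at least 4 of 16 arrays were kept, the kept probe with the highest mean stood for a gene, and arrays of an RNA sample were averaged. A limma model with 4 group means was fitted to 8 samples over 11334 genes (lmFit, eBayes, 4 residual and 3.35 prior degrees of freedom), with two-sided p adjusted by Benjamini-Hochberg. The scripts were tested on simulated data. Alternatives changed scaling, background correction, offset, filter, probe choice, repeat arrays, samples and blocks.

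The members and lists were chosen with earlier results of these data known. The text gives values in each sample for the 4 serpins with the smallest p in each genotype effect and the interaction, for up to 12 called serpins per tissue difference, and the called genes and largest tissue differences of each list. Same-numbered tissues of a genotype share a conceptus by the labels, and their deviations correlated at 0.22 in mutants and 0.04 in wild types. Mutants and wild types share only a number (0.17 in yolk sac, 0.19 in embryos).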

Additional observations from a re-analysis of the deposited data

Results flagged for a closer look

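Some serpins that missed the filter were detected on mutant yolk sac arrays and on 0 wild-type arrays. Serpinb9g, a copy related to Serpinb9f, was detected on 3 mutant yolk sac arrays and on 0 wild-type arrays. Its signal was 28.9 and 9.8 in mutant yolk sacs, against -4.8 and 6 in wild-type yolk sacs. Mutant yolk sac 1 was the high one for Serpinb9g as it was for Serpinb9f. The mean level of 5 trophoblast markers was 8.79 and 8.46 in mutant yolk sacs, against 7.16 and 7.99 in wild-type yolk sacs, and their part in this signal was not tested. Serpinb6c, a copy related to Serpinb6a, was detected on 2 mutant yolk sac arrays and on 0 wild-type arrays, at signals of 7.8 and 20.4 in mutant yolk sacs, against 3.9 and 4.6 in wild-type yolk sacs. The signal above which a probe counted as detected was 10 to 12 on mutant yolk sac arrays and 16.7 to 21 on wild-type yolk sac arrays, so a given dim signal is detected more readily in the mutants. Groups of 2 samples allow no test for a sample far from the others.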

How the results depend on the processing

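The count of serpins called for genotype in yolk sac was 2 with median scaling and 0 under each other alternative that kept all yolk sacs, the authors' processed values included. With single samples left out it was 0 to 2 in yolk sac, 0 to 1 in embryos and 0 to 2 for the interaction. The cases above 0 were Serpina1a and Serpina1c without mutant yolk sac 1 (yolk sac and interaction), and Serpinf2 without wild-type embryo 1 or 2 (embryo) or without wild-type embryo 2 (interaction). Counts of tissue differences were 9 to 15 in mutants and 13 to 16 in wild types, and no direction of a called serpin reversed. With the sample number as a block the genotype counts were 0 in yolk sac and 0 in embryos, and with the conceptus as a block the tissue counts were 14 in mutants and 15 in wild types and the interaction count 0. The block added Serpina1a (log2 1.48, adjusted p = 0.0384) and Serpina1e (0.53, 0.0251) in mutants and changed no other call. The fit to the 6 samples that the series design names gave 9 in mutants and 13 in wild types. Of 238 repeats of the 12 mutant tissue calls 18 missed the threshold, all of Serpina1b, Serpina1d, Serpinb9f or Serpinh1. In wild types 2 of 298 did, Serpina1c (3.15, adjusted p = 0.063) and Serpinh1 (0.38, 0.0793), both in the fit to 6 samples. Over all genes the yolk sac count was 143, and 0 in fits to the first arrays, to yolk sacs alone, to the 6 samples or with the number as a block. In embryos it was 241, against 0 with the authors' values, 5 without background correction and 51 to 207 without single samples. For the interaction it was 38, against 0 with the conceptus as a block, 143 with an offset of 50 and 0 to 86 without single samples. All calls are limma's. The yolk sac count over all genes also fell when any single sample was left out. Embryos were no exception, though they are not part of that comparison. Median scaling moved the median of all genes by -0.23 in yolk sac and gave 602 calls, 25 of them higher, against 64 of 143. A signal minimum of 30, chosen after seeing the data, left 15 serpins tested and 0 called for genotype. Slide could not be used as a block. The number of samples, 2 per group, limits every value, and signals near background limit those of Serpina1a, Serpina1c, Serpina1e, Serpina3j, Serpinb9f and Serpinc1.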

Other observations

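Other serpins were detected on 1 to 3 arrays without following a group. Serpinb8 was detected on 1 mutant yolk sac array, 1 mutant embryo array and 1 wild-type embryo array, at signals of 8 to 20.6 over the 8 samples. Serpini1, which encodes neuroserpin, an inhibitor of tissue plasminogen activator in the nervous system, was detected on 1 wild-type yolk sac array and 1 wild-type embryo array, with its highest signal of 24 in wild-type embryo 2. Serpina16 and Serpina3f were each detected on 1 wild-type yolk sac array and Serpina4-ps1 on 1 mutant yolk sac array. With a detection p of 0.05 such single detections can come from background.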
